A study of Mus musculus with 6 samples.

Results

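The RAB GTPases are the small GTPases that give membrane compartments their identity. They were taken as all gene symbols made of Rab and a number, with or without a further letter and digit, which gave 59 genes of the 24421 symbols counted. Rab27a, Rab32 and Rab38, 3 members that act on melanosomes, are described apart from the rest and called the melanosome members. The values come from RNA sequencing of endothelial cells sorted by FACS from B16F0 melanomas, a transplantable mouse melanoma line, grown under the skin of C57BL/6 mice for 17 days. There were 3 libraries from mice given 15C4, an antibody against the secreted glycoprotein LRG1, and 3 from mice given IgG as control, each antibody at 50 mg/kg every 3 days. All 6 libraries thus came from tumour-bearing mice of the same strain that had received an antibody. No age, sex or pooling of animals is given in the labels, nor whether each library stands for its own mouse, so the spread behind each p-value is that between libraries and may be technical.

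A RAB protein switches between a GTP-bound state, in which it recruits effectors such as tethers, motors and sorting proteins to a membrane, and a GDP-bound state. Exchange factors (GEFs) load GTP, GTPase-activating proteins (GAPs) end the active state, and GDI and REP proteins carry the prenylated protein through the cytosol. In endothelial cells RABs move junction proteins, growth factor receptors and the secretory granules that hold von Willebrand factor. In pigment cells Rab32 and Rab38 deliver enzymes of melanin synthesis to the melanosome, and Rab27a links the mature melanosome to actin through melanophilin and myosin Va.

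Of all members, only Rab39b had 0 counts in every 15C4 library and counts in every IgG library. How many of all symbols share this pattern was not counted. Promoter sequences are shown for it and for the melanosome genes Rab27a and Rab32. No window was matched for Rab38, the other melanosome member. Each sequence is a window of 300 bases around a RefSeq transcript start, mostly upstream of it (GRCm38.p6), 5′ to 3′ on the gene's strand. Capitals mark CACGTG, a hexamer bound by MITF and other basic helix-loop-helix factors. It was searched on both strands together with CATGTG, also a hexamer that MITF can bind. The windows are chr9:73063898-73064197 on the plus strand for the downstream start of Rab27a, chr10:10558158-10558457 on the minus strand for Rab32, and chrX:75578182-75578481 on the minus strand for Rab39b.

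Rab27a: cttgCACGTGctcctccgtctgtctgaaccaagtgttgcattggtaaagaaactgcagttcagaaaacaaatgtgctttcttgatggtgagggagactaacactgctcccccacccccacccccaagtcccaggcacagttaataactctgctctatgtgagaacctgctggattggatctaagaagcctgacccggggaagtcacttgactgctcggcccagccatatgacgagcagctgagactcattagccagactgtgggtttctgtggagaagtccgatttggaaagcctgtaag

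Rab32: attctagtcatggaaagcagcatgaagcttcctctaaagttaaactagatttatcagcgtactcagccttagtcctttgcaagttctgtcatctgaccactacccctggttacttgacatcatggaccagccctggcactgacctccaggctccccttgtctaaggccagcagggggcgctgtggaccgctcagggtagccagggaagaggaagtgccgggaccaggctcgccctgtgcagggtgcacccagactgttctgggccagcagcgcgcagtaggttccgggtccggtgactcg

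Rab39b: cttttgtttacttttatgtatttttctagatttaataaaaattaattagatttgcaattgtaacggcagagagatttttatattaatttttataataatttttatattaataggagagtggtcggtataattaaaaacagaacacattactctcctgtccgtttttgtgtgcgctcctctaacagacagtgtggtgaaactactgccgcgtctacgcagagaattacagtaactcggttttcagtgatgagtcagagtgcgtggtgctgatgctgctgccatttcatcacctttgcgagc

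CACGTG occurs in the window of the downstream Rab27a start and in neither of the others, and CATGTG is in none of them. The window of the upstream Rab27a start (chr9:73044560-73044859, plus strand), not shown, holds neither hexamer. Among all 32851 RefSeq promoter windows of this length, 7.15% hold CACGTG and 14.2% hold CATGTG. Of the 60 windows matched to 48 RAB genes, 6 hold CACGTG and 6 hold CATGTG, 10% in each case. A match in these letters is a description of the window and not a binding site.

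Levels are given as CPM, counts scaled to a common library total. The libraries held 8400846, 19572202 and 6392700 counts for 15C4 and 5175600, 9641617 and 11669085 counts for IgG. The first principal component, with 45.7% of the variance, set 15C4 3 apart from the other 5 libraries. As a check of the labelled cell type, 22 pan-endothelial genes together had 1664 to 3532 CPM in 15C4, against 258 to 2930 CPM in IgG, the lowest being IgG 3. The 13 melanocyte lineage genes together had 24520 to 28562 CPM in 15C4, against 24057 to 29186 CPM in IgG, with 0 of the 13 at 0 counts in any library, so melanocyte transcripts exceeded endothelial ones in each library. RAB genes are used by most cell types, and how far each cell type contributed to their counts was not tested. In such bulk libraries fewer cells of a type and less RNA per cell cannot be told apart. All CPM below are of all counts, in the order of replicates 1, 2 and 3 of each group.

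The RAB genes were detected in large part in both groups, and 20 of the 59 had 0 counts in at least 1 library. They summed to 5063, 5209 and 5018 CPM in 15C4, against 4314, 4520 and 5187 CPM in IgG. That is a mean of 5097 ± 100 CPM for 15C4 and 4674 ± 456 CPM for IgG (SD over 3 libraries per group), and the groups overlapped. In all 6 libraries 39 members were detected, 18 had 0 counts in some libraries, and Rab25 and Rab39 had 0 counts in every one. Rab25 is the epithelial relative of Rab11. A count of 0 allows up to 3 counts, which is 0.153 to 0.469 CPM in the 15C4 libraries and 0.257 to 0.580 CPM in the IgG libraries. Such floors, and the bounds and intervals below, cover counting error only: the reads come from amplified cDNA with no molecular identifiers, and reads of 1 molecule count more than once.

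Members at 0 counts numbered 14, 11 and 17 in the 15C4 libraries, against 8, 10 and 14 in the IgG libraries. As a share of the 59 members this is 23.7%, 18.6% and 28.8% in 15C4 and 13.6%, 16.9% and 23.7% in IgG. Over all symbols, 51.9%, 47.0% and 57.4% were at 0 in 15C4 and 43.9%, 47.8% and 50.8% in IgG. The library with the most members at 0 was 15C4 3 and that with the fewest was IgG 1, and the same libraries held the most and the fewest symbols at 0. IgG 1 had the smallest total. It also had the highest sums of T and NK cell markers (566 CPM, with 5.11 to 220 CPM in 15C4 and 8.91 to 14.0 CPM in the other IgG libraries) and of macrophage markers (203 CPM, with 0.469 to 76.5 CPM in 15C4 and 17.9 to 29.5 CPM in the other IgG libraries). The part of these cells in the number of members detected was not tested.

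Among the 43 members with a mean of at least 5 CPM, 4 had 0 counts in at least 1 library, or 9.30%. Among all 9998 symbols at that level the share was 12.5%. These 4 members gave 1, 1 and 4 entries of 0 in the 15C4 libraries and 0 in each IgG library. Rab17, Rab36 and Rab6b were at 0 in 15C4 3 alone, and Rab39b was at 0 in all 3 libraries of 15C4. Of all symbols at this level, 2.54%, 1.73% and 9.05% were at 0 in the 15C4 libraries, against 0.200%, 0.940% and 2.04% in the IgG libraries. The share at 0 in every 15C4 library and in no IgG library was not counted.

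**Figure D1:**
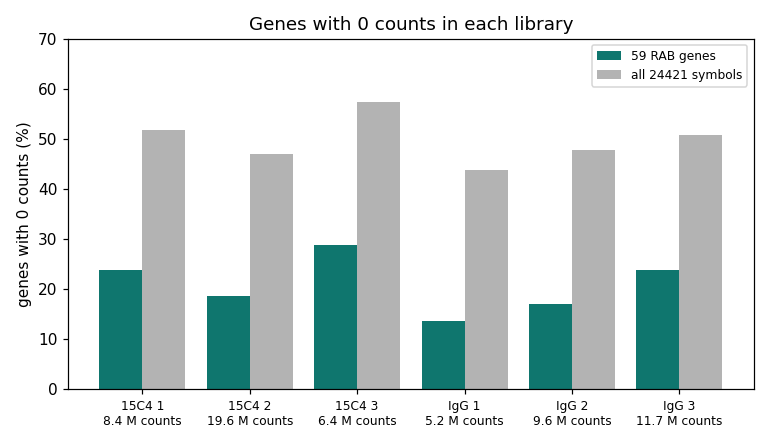
Percentage of genes at 0 counts in each library, with the 15C4 libraries on the left and the IgG libraries on the right, for the 59 RAB genes and for all 24421 symbols. The RAB shares run from 13.6% to 28.8% and lie below the shares of all symbols, 43.9% to 57.4%, in each library.

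Transcripts of transport between the endoplasmic reticulum (ER) and Golgi made up the largest share of RAB expression, and a few genes carried most of it. This class of 12 members held 40.3% of all RAB CPM. The recycling and exocytosis class held 26.9%, the 3 melanosome members 11.7%, late endosome and lysosome members 10.6%, early endosome members 6.97% and cilium members 2.78%. Members of regulated secretion held 0.635% and the cullin-binding Rab40 genes 0.134%. The 12 members with a mean of at least 100 CPM together held 80.3% of the RAB CPM.

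To compare genes of different length, CPM was divided by kilobases of exon. Rab2a led with 297 ± 13.7 CPM per kb over the 6 libraries (SD), followed by Rab38 with 225 ± 71.4, Rab1 with 135 ± 49.1 and Rab11a with 128 ± 17.4 CPM per kb. Next came Rab7 with 119 ± 27.96, Rab6a with 101.04 ± 16.3, Rab10 with 61.2 ± 20.4 and Rab32 with 54.9 ± 10.5 CPM per kb. A melanosome gene was thus second in the family in a sort labelled endothelial, and Rab27a was at rank 15 with 22.8 ± 7.74 CPM per kb. The range over the 6 libraries of every member overlapped that of the next in this order. Rab2a was also among the steadiest genes: the SD of its CPM of all counts over the 6 libraries was 4.62% of the mean, and only 1 of the 2318 genes with a mean of at least 100 CPM had a smaller value. After TMM scaling it was 9.27%, and 13 of these genes had a smaller one.

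**Figure D2:**
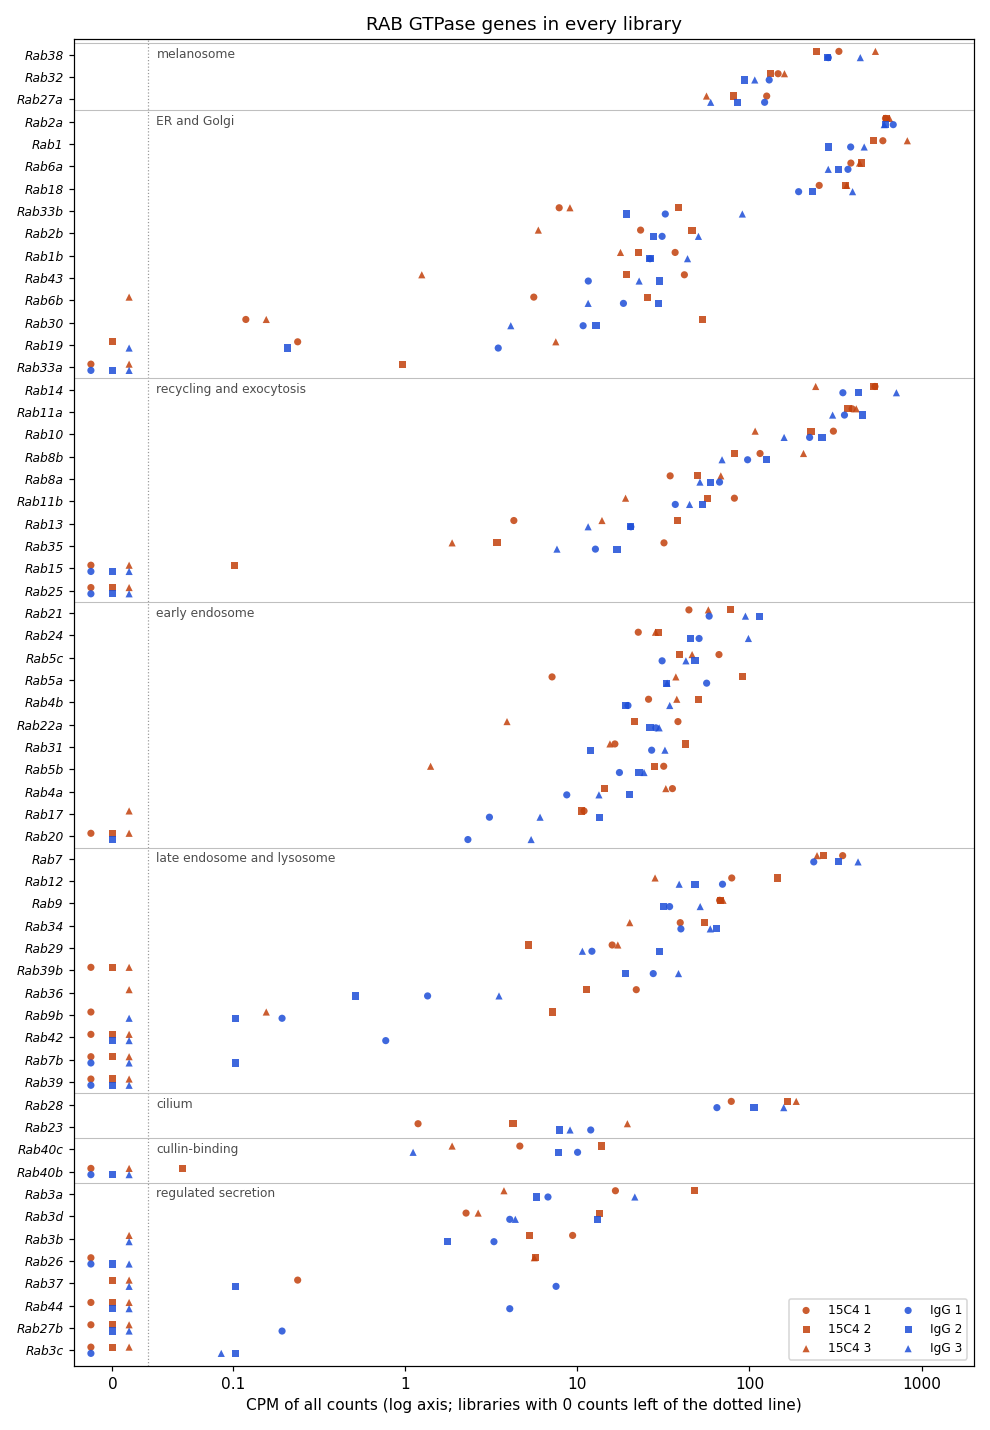
CPM of every RAB gene in each library on a log axis, grouped by role and ordered by mean CPM within a role, with 15C4 libraries in orange and IgG libraries in blue, and libraries with 0 counts left of the dotted line. Rab2a spans only 606 to 684 CPM, while Rab30 spans 0.119 to 53.1 CPM and Rab39b has 0 counts in the 15C4 libraries alone.

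The comparison of 15C4 with IgG asks whether the antibody altered expression in the sorted cells. No RAB gene passed the test, and most differences were smaller than the spread between libraries. Of the 59 members, 44 had enough counts to be tested among 11144 genes, and 15 did not. By the edgeR quasi-likelihood test 0 of the 44 passed an adjusted p of 0.05, and 0% of all genes did. The smallest adjusted p was 0.689, the value of Rab39b, and it was 0.9997 for each of the other 43 tested members. At an unadjusted p under 0.05, 2 of 44 members were called, Rab1 as higher and Rab39b as lower in 15C4, or 4.55% against 2.58% of all tested genes (1.26% higher and 1.33% lower). Limma-voom called 0 members at an adjusted p of 0.05, and DESeq2 called 1, Rab39b, with an adjusted p of 7.48e-08, where it called 0.233% of all genes. At an unadjusted p under 0.05 DESeq2 had 3 members, Rab1, Rab24 and Rab39b, and 4.08% of all genes.

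The fitted log2 fold change of 15C4 over IgG was above 0 for 25 of 44 members, or 56.8%, against 50.7% of all tested genes. Its median was 0.12 over the members and 0.01 over all tested genes. For 36 of 44 members, or 81.8%, it was under 1 in size, against 78.8% of all tested genes. The 3 libraries of 15C4 lay wholly above or below those of IgG, after TMM scaling, for 5 members, or 11.4%, against 9.50% of all tested genes. These were Rab32, Rab1 and Rab9 as higher in 15C4 (background 3.58%) and Rab24 and Rab39b as lower (background 5.92%). The members' shares were near those of all genes on each of these counts.

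In the authors' deposited table, whose log2 fold changes run IgG over 15C4, 2 of the 54 members with an adjusted p were under 0.05, against 3.59% of 14112 genes. That table gives a log2 fold change of 0.145 for Rab25 and for Rab39, which had 0 counts in all 6 libraries. The libraries and settings behind its statistics are not given in the labels. Its calls and those above may therefore not come from like fits. The members called there were among those 54. The 2 members called were Rab39b, with a log2 fold change of 10.49 and an adjusted p of 5.03e-11, and Rab20, with 7.04 and 0.00294. Both were higher in IgG in the authors' deposited table.

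**Figure D3:**
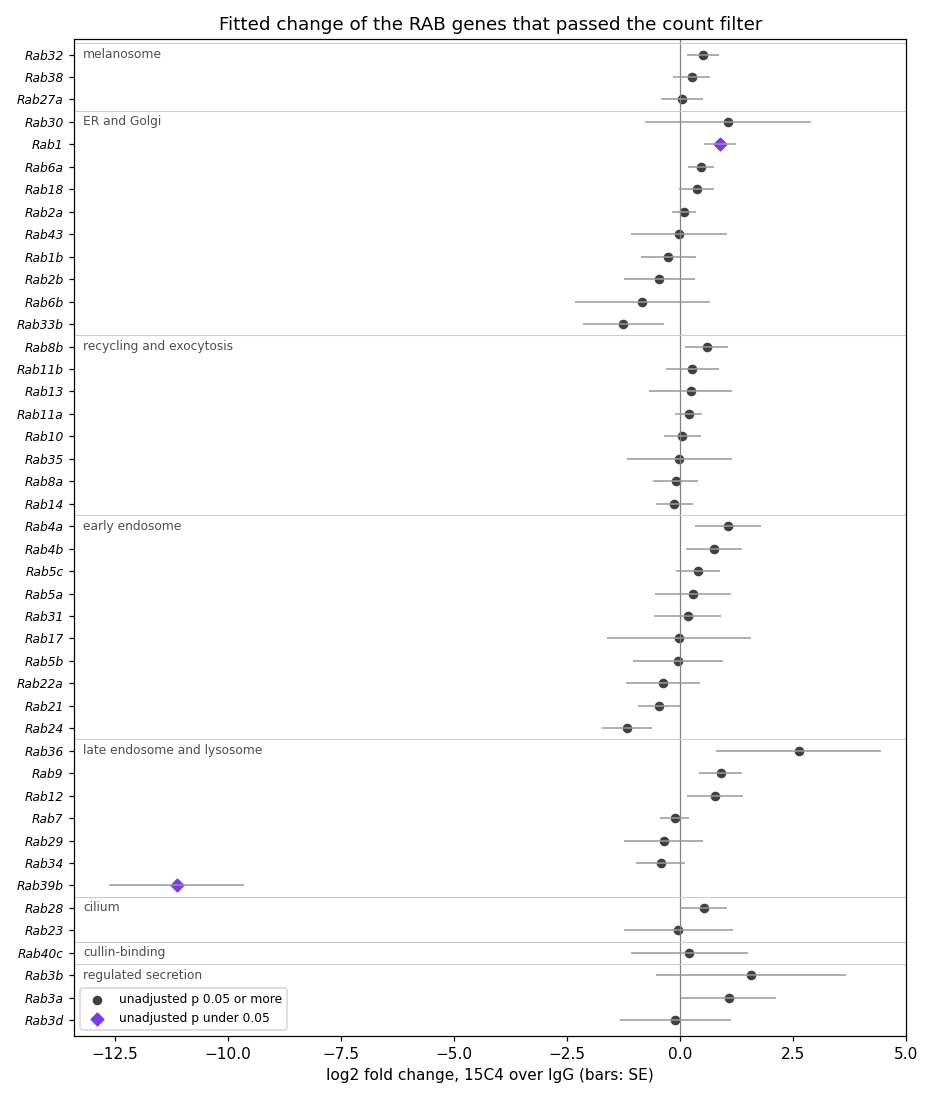
Fitted log2 fold change of 15C4 over IgG, with its standard error as a bar, for the 44 tested RAB genes by edgeR, with diamonds for an unadjusted p under 0.05. Most bars reach across 0 and 36 of 44 values lie within 1 of it. The value of Rab39b, whose 15C4 libraries are at 0 counts, depends on the prior count and is no measure of size.

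The melanosome members were expressed in every library and 0 of the 3 passed the test. They summed to 603, 460 and 755 CPM in 15C4, against 540, 462 and 607 CPM in IgG, or 606 ± 148 CPM for 15C4 and 536 ± 72.8 CPM for IgG (SD over 3 libraries per group). The groups overlapped, and 15C4 3 held the highest sum. The log2 ratio of the group means was 0.18, and -0.01 without 15C4 3.

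Rab38 (GRCm38 chromosome 7, 88430273 to 88491572), which directs tyrosinase family cargo to melanosomes, had 331, 246 and 539 CPM in 15C4, against 287, 283 and 440 CPM in IgG. The third library of each group was the highest, and the groups overlapped. Its log2 fold change was 0.25 (SE 0.41), or -0.21 without 15C4 3.

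Rab32 (chromosome 10, 10545002 to 10558265), which shares much of this work with Rab38, had 147, 133 and 160 CPM in 15C4, against 130.2, 93.6 and 107 CPM in IgG. All 15C4 libraries lay above all IgG libraries, though 15C4 2 and IgG 1 were close. The log2 fold change was 0.50 (SE 0.35, edgeR quasi-likelihood unadjusted p = 0.189), and it lay between 0.37 and 0.64 with each library left out in turn.

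Rab27a (chromosome 9, 73044854 to 73097629), the actin-tethering RAB of melanosomes and also a RAB of endothelial secretory granules, had 126, 80.9 and 56.3 CPM in 15C4, against 122, 84.9 and 59.6 CPM in IgG. The groups covered nearly the same range, and the log2 fold change was 0.04 (SE 0.46). Mitf, which encodes the transcription factor of the melanocyte lineage, had 1410, 1101 and 370 CPM in 15C4 and 1068, 857 and 509 CPM in IgG. Tyr, which encodes tyrosinase, had 542, 776 and 1222 CPM in 15C4 and 548, 663 and 1392 CPM in IgG. Within each group Rab27a and Mitf were highest and lowest in the same libraries, and Tyr, Mlana and Slc45a2 ran the other way. No other of the 13 melanocyte lineage genes matched Rab27a so in both groups. Sox10, for one, had 182, 140 and 63.7 CPM in 15C4 but 107, 130 and 147 CPM in IgG. Mitf, Tyr, Mlana and Slc45a2 were chosen for this remark after their values were seen, and no test was made.

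Relative to the summed melanocyte markers, the 3 melanosome members stood at 21.3, 18.7 and 26.4 CPM per 1000 melanocyte CPM in 15C4, against 18.5, 16.8 and 25.2 in IgG. On this scale Rab32 had 5.18, 5.41 and 5.59 in 15C4, against 4.46, 3.397 and 4.46 in IgG, and its groups did not overlap. Those of Rab1, Rab9 and Rab6a did not overlap either, with 15C4 higher. These are the same Rab32 counts over another sum, most of which was Dct and Tyrp1. The share of all genes that separate on this scale was not counted. Rab38 had 11.7, 10.03 and 18.9 in 15C4, against 9.84, 10.3 and 18.3 in IgG. Rab27a had 4.44, 3.30 and 1.97 in 15C4, against 4.20, 3.08 and 2.48 in IgG.

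**Figure D4:**
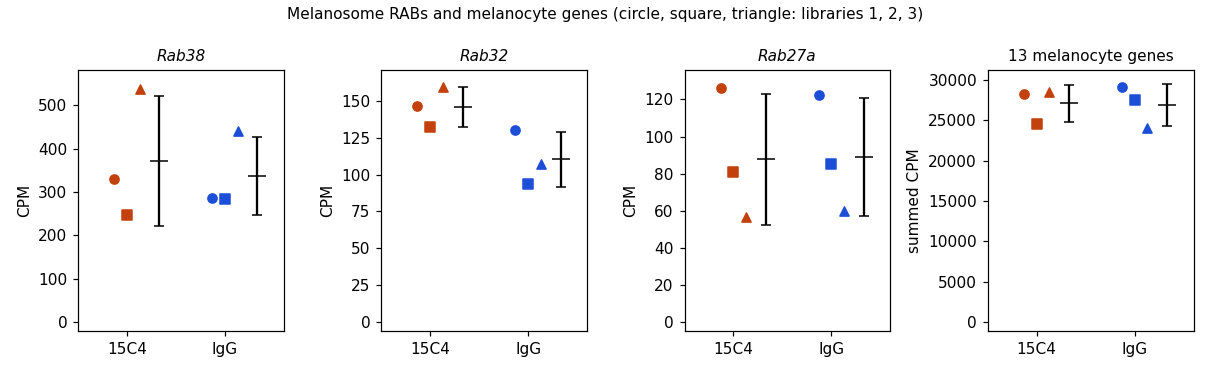
CPM of Rab38, Rab32 and Rab27a and summed CPM of the 13 melanocyte lineage genes in each library, with 15C4 libraries left of IgG libraries in each panel and the group mean with its SD as a bar. The groups of Rab32 do not overlap, with 133 to 160 CPM in 15C4 and 93.6 to 130 CPM in IgG, while those of Rab38, Rab27a and the melanocyte sum do.

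Of the partners of the melanosome RABs fixed as a list of 9 genes, 8 were tested, 0 passed at an adjusted or unadjusted p of 0.05, 2 were above and 6 below 0, and the median log2 fold change was -0.11. The 2 above 0 were those with the smallest p. Myo5a, the motor myosin Va, had 1928, 698 and 1139 CPM in 15C4, against 1000.3, 975 and 887 CPM in IgG (fitted log2 fold change 0.46, SE 0.36). Sytl2, an effector of RAB27 in secretion, had 169, 146 and 104 CPM in 15C4, against 114, 147 and 65.8 CPM in IgG (0.43, SE 0.41). Both overlapped between the groups.

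Among the ER and Golgi members, Rab1 was higher in 15C4 at the unadjusted threshold and Rab2a hardly moved. Their class summed to 2152 ± 176 CPM for 15C4 and 1787 ± 183 CPM for IgG (SD over 3 libraries per group). Rab1 (annotated as Rab1a, chromosome 11, 20201432 to 20226856), which controls vesicle traffic from the ER to the Golgi, had 595, 527 and 826 CPM in 15C4, against 387, 288 and 464 CPM in IgG. All 15C4 libraries lay above all IgG libraries. The log2 fold change was 0.88 (SE 0.35) with an edgeR quasi-likelihood unadjusted p of 0.0340, which did not pass over all genes (adjusted p = 0.9997). The unadjusted p was 0.119 without 15C4 3, where the log2 fold change was 0.59, 0.114 without IgG 2 and 0.0849 without IgG 1.

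Rab2a (chromosome 4, 8535644 to 8607778), which acts between the ER and Golgi, had 617, 624 and 651 CPM in 15C4, against 684, 615 and 606 CPM in IgG. The groups overlapped, and the log2 fold change was 0.09 (SE 0.27). Rab6a, a regulator of transport within and out of the Golgi, had 388, 445 and 436 CPM in 15C4, against 373, 331 and 287 CPM in IgG. In CPM of all counts its groups did not overlap, but after TMM scaling they did, and the log2 fold change was 0.46 (SE 0.29). It was named after its values were seen.

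The paralogue Rab6b, known from neurons, had 5.59, 25.7 and 0 CPM in 15C4, against 18.5, 29.8 and 11.6 CPM in IgG. The groups overlapped, and the log2 fold change was -0.84 (SE 1.49), -2.83 without 15C4 2 and -0.26 without 15C4 3. Rab30, a Golgi RAB, rested on 1 library: it had 0.119, 53.1 and 0.156 CPM in 15C4, against 10.8, 12.9 and 4.11 CPM in IgG. Its log2 fold change was 1.06 (SE 1.83) and -5.83 without 15C4 2. It was named after its values were seen. The other 7 members of the class, Rab18, Rab33b, Rab2b, Rab1b, Rab43, Rab19 and Rab33a, overlapped between the groups or were too low to test. Rab43 shares 74.5% of its 50-base stretches with the transcript of Gm45140, so its counts are uncertain.

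Members of recycling and exocytosis had nearly equal sums in the 2 groups, with 1314 ± 218 CPM for 15C4 and 1316 ± 136 CPM for IgG (SD over 3 libraries per group). Rab11a, the central RAB of the recycling endosome, had 395, 373 and 417 CPM in 15C4, against 356, 455 and 304 CPM in IgG, with a log2 fold change of 0.19 (SE 0.30). Rab10, which serves exocytosis of membrane proteins, had 307, 228 and 108 CPM in 15C4, against 224, 264 and 159 CPM in IgG (0.05, SE 0.41). Both overlapped between the groups, and 15C4 3 and IgG 3 were the low libraries of Rab10. Of the other 8 members, Rab14, Rab8b, Rab8a, Rab11b, Rab13 and Rab35 had log2 fold changes between -0.13 and 0.58 and overlapping groups, Rab15 had 2 counts in 15C4 2 alone, and Rab25 had none.

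Early endosome members included Rab24, which was lower in every 15C4 library than in any IgG library. The class summed to 322.5 ± 74.8 CPM for 15C4 and 358 ± 55.8 CPM for IgG (SD over 3 libraries per group). Rab24 (chromosome 13, 55319743 to 55321946), an unusual RAB tied to autophagy, had 22.6, 29.5 and 28.5 CPM in 15C4, against 51.0, 45.2 and 98.6 CPM in IgG. IgG 3 was the highest of all. The log2 fold change was -1.18 (SE 0.55, edgeR quasi-likelihood unadjusted p = 0.0635), and -0.71 without IgG 3. Of its 2015 exonic bases, 1258 overlap Prelid1 on the other strand. Whether the counting used strand is not given in the sources used here, so reads of the 2 genes may not have been kept apart.

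Rab5c, a RAB of early endosome fusion, had 66.5, 39.1 and 46.5 CPM in 15C4, against 31.1, 48.3 and 42.8 CPM in IgG (fitted log2 fold change 0.39, SE 0.49). Rab17, known from polarised epithelia, had 10.95, 10.6 and 0 CPM in 15C4, against 3.09, 13.5 and 6.08 CPM in IgG (-0.03, SE 1.59). Both overlapped between the groups. Rab20, a RAB of phagosomes and endosomes that was too low to test, had 0 counts in each 15C4 library, against 12, 0 and 63 counts in IgG. Pooled over each group and with 3 counts as the floor over 15C4, it was at least 32.4-fold lower in 15C4. The bound was 9.28-fold without IgG 3, 14.0-fold without 15C4 2 and 51.0-fold without IgG 2. IgG 2 was also at 0, so the groups overlap. The remaining 7 members, Rab21, Rab5a, Rab4b, Rab22a, Rab31, Rab5b and Rab4a, overlapped between the groups, with log2 fold changes from -0.47 to 1.06.

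Among the late endosome and lysosome members, Rab39b was not detected in any 15C4 library and Rab9 was higher in each of them than in any IgG library. The class summed to 505 ± 106 CPM for 15C4 and 526 ± 104 CPM for IgG (SD over 3 libraries per group). Rab39b (chromosome X, 75572046 to 75578231), known from neurons and from autophagy and mutated in a human X-linked intellectual disability, had 0, 0 and 0 CPM in 15C4, against 27.6, 19.1 and 38.7 CPM in IgG. In counts this is 0 in 15C4, against 143, 184 and 452 in IgG. The floors of 3 counts in the 15C4 libraries were 0.357, 0.153 and 0.469 CPM, below each IgG value.

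Pooled over each group and with 3 counts as the floor over 15C4, Rab39b was at least 337-fold lower in 15C4. Without 15C4 2, the deepest of the 3, the bound was 145-fold, and it lay between 253-fold and 405-fold with any other library left out. Its unadjusted p was 0.000214 and its adjusted p 0.689 by the edgeR quasi-likelihood test. Of its 3401 exonic bases, 634 overlap the antisense transcript Gm15063, which has no row of its own in the counts. The IgG libraries differed widely in pan-endothelial sum, 2072, 2930 and 258 CPM, and each of them had Rab39b counts. The melanocyte sum overlapped between the groups. The part of cell types in the Rab39b counts was not tested.

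Rab9 (chromosome X, 166457253 to 166479867), which returns mannose 6-phosphate receptors from late endosomes to the Golgi, had 67.1, 67.9 and 70.2 CPM in 15C4, against 34.4, 31.7 and 51.8 CPM in IgG. The 15C4 libraries were close together and all above IgG. The log2 fold change was 0.89 (SE 0.47, edgeR quasi-likelihood unadjusted p = 0.0928), with a range of 0.75 to 1.17 when each library was left out in turn. Rab7, the main RAB of late endosomes, had 348, 269 and 247 CPM in 15C4, against 236, 329.7 and 427 CPM in IgG. Its groups overlapped, and the log2 fold change was -0.12 (SE 0.33).

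Rab36, which positions late endosomes and melanosomes, had 22.02, 11.3 and 0 CPM in 15C4, against 1.35, 0.519 and 3.51 CPM in IgG. Among the 15C4 libraries 2 lay above all IgG libraries and 15C4 3 below them. The log2 fold change was 2.62 (SE 1.82), and 3.19 without 15C4 3 and 1.72 without 15C4 1. Rab9b had 141 counts in 15C4, 140 of them in 15C4 2, against 2 in IgG, which gives a ratio of 54.3 with a 95% counting interval of 14.8 to 453. Without 15C4 2 the counts were 1 in 15C4 and 2 in IgG, and the groups overlap. Of the other 6 members, Rab12, Rab34 and Rab29 overlapped between the groups, Rab42 had 4 counts, all in IgG 1, Rab7b had 1 count in IgG 2, and Rab39 had none.

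**Figure D5:**
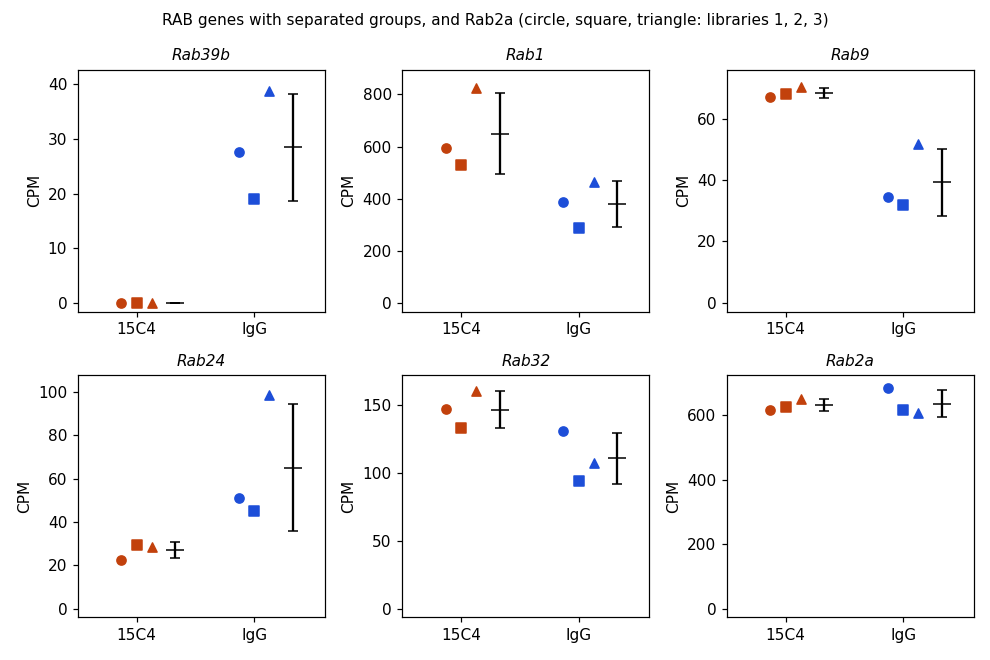
CPM in each library of the 5 members whose 15C4 and IgG libraries did not overlap, and of Rab2a as a steady member, with 15C4 on the left and IgG on the right of each panel and the group mean with its SD as a bar. Rab1, Rab9 and Rab32 lie higher in 15C4, Rab24 lies lower, and Rab39b is at 0 in each 15C4 library and at 19.1 to 38.7 CPM in IgG.

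The cilium class was carried by Rab28, and the members of the other small classes were low. Rab28, a ciliary RAB, had 78.4, 167 and 187 CPM in 15C4, against 64.7, 106 and 158 CPM in IgG (fitted log2 fold change 0.52, SE 0.51). Rab23, an inhibitor of Hedgehog signalling, had 1.19, 4.24 and 19.6 CPM in 15C4, against 11.98, 7.88 and 9.08 CPM in IgG (-0.04, SE 1.20). Both overlapped, and the 15C4 libraries of Rab23 lay on either side of all IgG libraries. Rab40c, which binds cullin 5 through a SOCS box, had 4.64, 13.8 and 1.88 CPM in 15C4, against 10.05, 7.78 and 1.11 CPM in IgG (0.20, SE 1.29), and Rab40b had 1 count in all.

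Of the 8 RABs of regulated secretion, only Rab3a and Rab3d were detected in all 6 libraries. Rab3a, the synaptic vesicle RAB, had 16.7, 48.0 and 3.75 CPM in 15C4, against 6.76, 5.81 and 21.6 CPM in IgG (fitted log2 fold change 1.07, SE 1.052). It was -0.16 without 15C4 2. Rab3d, found on exocrine and endothelial granules, had 2.26, 13.5 and 2.66 CPM in 15C4, against 4.06, 13.2 and 4.37 CPM in IgG (-0.11, SE 1.23).

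Rab3b had 79, 103 and 0 counts in 15C4, against 17, 17 and 0 counts in IgG, and its groups overlapped.

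The others had 0 counts in at least 3 libraries. Rab26 had 0, 112 and 36 counts in 15C4, against 0 in every IgG library, at least 38.0-fold higher in 15C4 at 3 counts over the IgG group. The bound was 21.5-fold without 15C4 2, 24.2-fold without IgG 2 and 21.3-fold without IgG 3, and the groups overlap because 15C4 1 was at 0 too. It shares 267 exonic bases with Traf7 on the same strand. Rab37 had 2 counts in 15C4, against 40 in IgG, of which 39 were in IgG 1, so that 15C4 was lower by a ratio of 25.9 (95% counting interval 6.73 to 222). Without IgG 1 the counts were 2 in 15C4 and 1 in IgG, and the groups overlap. All 21 counts of Rab44, known from immune cells, were in IgG 1. Rab27b had 1 count in all, in IgG 1, and Rab3c had 2 counts, in IgG 2 and IgG 3. IgG 1 is the library with the highest T and NK cell and macrophage sums given above, and the part of those cells in these counts was not tested.

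The regulators and effectors of the RABs were read from 4 further lists, and 0 of their members passed an adjusted p of 0.05 in either direction by edgeR. Of the 8 genes for prenylation and recycling, all were tested, 4 were above and 4 below 0, and the median log2 fold change was 0.17. Gdi2, which extracts RABs from membranes, had 306, 486 and 397 CPM in 15C4, against 397, 229.9 and 354 CPM in IgG (0.38, SE 0.36). Rabggtb, a subunit of the RAB geranylgeranyl transferase, had 121, 93.8 and 276 CPM in 15C4, against 124, 111 and 135 CPM in IgG (0.54, SE 0.49). Both overlapped between the groups.

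Of 35 tested GEFs, 1 was higher and 0 lower at an unadjusted p of 0.05, or 2.86%, against 2.58% of all tested genes, and 15 were above and 20 below 0 with a median of -0.08. The called GEF was Dennd1a, a GEF for RAB35, with 34.2, 14.9 and 5.32 CPM in 15C4, against 4.83, 1.24 and 3.00 CPM in IgG (fitted log2 fold change 2.60, SE 1.10, edgeR quasi-likelihood unadjusted p = 0.0440). The groups did not overlap, and the unadjusted p was under 0.05 without 15C4 3 but 0.0669 to 0.185 with any other library left out. After TMM scaling Dennd1a was the 1 of 35 GEFs with all 15C4 libraries above all IgG libraries, against 3.58% of all tested genes. All 15C4 libraries lay below for 2 GEFs, Rin1 and Rab3gap2, and for 5.92% of all tested genes. Their log2 fold changes were -1.97 (SE 1.75) and -0.93 (SE 0.53). Fam45a, also known as Dennd10, had 69.5, 33.7 and 135 CPM in 15C4, against 37.9, 14.8 and 44.0 CPM in IgG (1.41, SE 0.69), and its groups overlapped.

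Of 35 tested GAPs, 0 were called at the unadjusted threshold, 17 were above and 18 below 0, and the median was -0.14. After TMM scaling 1 of 35 GAPs, Tbc1d14, had all 15C4 libraries below all IgG libraries, against 5.92% of all tested genes. In CPM of all counts its groups overlapped, with 19.5, 13.8 and 4.85 CPM in 15C4, against 20.5, 19.4 and 25.3 CPM in IgG. Its log2 fold change was -0.72 (SE 0.77). Tbc1d9 had 0.476, 29.9 and 12.7 CPM in 15C4, against 2.90, 3.22 and 0.686 CPM in IgG (fitted log2 fold change 2.81, SE 1.496). Tbc1d30 had 0, 1.43 and 0 CPM in 15C4, against 8.89, 21.2 and 0 CPM in IgG (-4.15, SE 2.45). Both overlapped between the groups.

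Of 40 tested effectors, 2 were higher and 0 lower at the unadjusted threshold, or 5%, against 2.58% of all genes, and 17 were above and 23 below 0 with a median of -0.08. Eea1, the RAB5 effector that tethers early endosomes, had 269, 222 and 279 CPM in 15C4, against 184, 81.0 and 81.8 CPM in IgG (fitted log2 fold change 1.25, SE 0.42, edgeR quasi-likelihood unadjusted p = 0.0177). Lrrk2, a kinase that is both recruited by RAB29 and phosphorylates RABs, had 84.0, 29.8 and 35.04 CPM in 15C4, against 23.6, 11.7 and 16.8 CPM in IgG (1.56, SE 0.65, unadjusted p = 0.0407). These 2 of 40 effectors had all 15C4 libraries above all IgG libraries, as 3.58% of all tested genes did after TMM scaling. Neither passed over all genes (edgeR adjusted p = 0.9997). The unadjusted p of Eea1 was 0.0645 without IgG 2 and 0.0576 without IgG 3, and that of Lrrk2 was 0.173 without 15C4 1 and 0.0616 to 0.122 with any IgG library left out. Rbsn, also a RAB5 effector, was the 1 of 40 effectors whose 15C4 libraries lay below all IgG libraries, against 5.92% of all tested genes. It had 12.02, 15.1 and 0.156 CPM in 15C4, against 26.9, 43.5 and 32.8 CPM in IgG (-1.86, SE 1.18). Rin1, Rab3gap2, Tbc1d14 and Rbsn were named after their values were seen.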

How the data were processed

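RNA from FACS-sorted cells was sequenced in 3 libraries of 15C4 and 3 of IgG, prepared from amplified cDNA and Nextera XT reagents, per the labels. The authors deposited whole-number counts per gene symbol. The submitters' processing notes list the tools fastp, STAR 2.5b, featureCounts and DESeq2 and, with no role for either, the builds mm10 and mm9. The annotation, the build used for counting and the strand setting are not stated in the labels or file headers. The authors' deposited table also holds a log2 fold change (IgG over 15C4 by its sign), a p-value and an adjusted p-value per gene, used only where named.

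Counts were tested with edgeR 4.0.16 (R 4.3.3): TMM factors, filterByExpr (minimum count 10, total 15), quasi-likelihood test, treatment as the only term, Benjamini-Hochberg adjustment over 11144 genes. The SE of a log2 fold change is its size over the square root of F. Printed levels are CPM from the total of all counts, with no TMM scaling. With 3 libraries against 3, an exact permutation test cannot go below 0.1. The fitted biological coefficient of variation was 0.861. On simulated counts of 10695 genes for this comparison, edgeR recovered 7, 33, 40 and 47 of 50 genes changed 4-, 16-, 64- and 256-fold, with 3 false calls. Gene means were scaled to the library totals, with dispersion from the fitted trend and no further scatter by gene. No simulated library was an outlier as 15C4 3 was, so recovery and false calls may differ in the real libraries.

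Coordinates, exon lengths and overlaps are from GENCODE M21 (GRCm38), where all 59 members were found. Of these, 20 overlap an exon of another gene and 8 share over 5% of their 50-base stretches with other genes' transcripts, among them Rab43, Rab4b (58.1%, with Gm21983) and Rab7 (11.2%). Promoters are RefSeq windows on GRCm38.p6, where 48 members on chromosomes used here matched.

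Full values are given for the melanosome members, Rab39b, the 2 members of each role with the highest CPM per kb, members at an unadjusted p under 0.05 or with groups that do not overlap, members with a mean of at least 5 CPM and a count of 0 somewhere, and the 2 genes of each pathway list with the smallest p. The members and lists were chosen with earlier results of these data known. Alternatives were other normalisations, filters and tools, a replicate block and leaving out each library. Other tools were DESeq2 1.42.0 (55 false calls in the simulation) and limma-voom (limma 3.58.1).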

Additional observations from a re-analysis of the deposited data

How the results depend on the processing

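No RAB gene passed the adjusted threshold under the other normalisations, filters, limma-voom, the replicate block or with any library left out. DESeq2 called 1, Rab39b (adjusted p = 7.48e-08). Members at an unadjusted p under 0.05 numbered 2 as reported, 4 with no filter beyond a total above 0, and 1 to 4 with each library left out. Over all genes the shares were 2.58%, 3.54% and 1.91% to 5.71%. Whether the replicate numbers pair the libraries is not stated and was not settled by correlations this small. Same-numbered libraries had correlations of -0.04, 0.06 and 0.10, against -0.10 to 0.07 for the other pairs. 15C4 1 correlated best with IgG 2, and 15C4 2 and 15C4 3 with the IgG library of their number. A fit with the replicate block gave 0 members at the adjusted and 2 at the unadjusted threshold, with a median log2 fold change of -0.05 over the members and -0.15 over all genes. Several small fold changes turned their sign. With library size only they were -0.011 for Rab10, -0.023 for Rab27a and -0.012 for Rab2a. Rab10 was -0.015 with the replicate block, and Rab23 was 0.015 with RLE factors and 0.014 with DESeq2. Leaving out each library turned the sign for 22 of the 44 tested members. Among them were Rab30 (-5.83 to 1.64), Rab10 (-0.22 to 0.35), Rab17 (-0.48 to 0.66), Rab23 (-1.75 to 0.49), Rab27a (-0.22 to 0.35), Rab38 (-0.21 to 0.53), Rab3a (-0.16 to 1.96), Rab3d (-1.43 to 0.64), Rab40c (-0.88 to 0.72) and Rab7 (-0.32 to 0.14). The causes were not tested, and such sign changes were not counted over all tested genes. The bound of Rab39b was 145-fold without 15C4 2, an alternative chosen after seeing the data. The median over the members lay between -0.01 and 0.25 with each library left out, and the log2 ratio of the melanosome sum between -0.01 and 0.34. Without each library in turn Rabggtb ran from -0.17 to 0.83, an alternative chosen after seeing the data. The 15 untested members had 0 to 148 counts per group. Thinning every library to the smallest total left 14, 12 and 17 members at 0 in 15C4 and 8, 12 and 15 in IgG.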

Other observations

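Several pairs of close relatives kept the same order in each library, in CPM per kb of exon. Rab2a exceeded Rab2b 23.4-fold to 214-fold, Rab6a exceeded Rab6b 15.0-fold to 93.6-fold in the 5 libraries with Rab6b counts, Rab11a exceeded Rab11b 9.89-fold to 44.8-fold and Rab1 exceeded Rab1b 6.35-fold to 27.7-fold, with the first of each pair higher in 6 of 6 libraries. Rab8b exceeded Rab8a in 6 of 6 libraries by 1.33-fold to 3.29-fold. Among the RAB5 genes, which act on early endosomes, Rab5c was above Rab5a (1.03-fold to 22.4-fold) and above Rab5b (2.65-fold to 63.2-fold) in 6 of 6 libraries, and Rab5a was above Rab5b in 5 of 6. Rab4b was above Rab4a in 4 of 6. These orders describe the libraries and were not tested. Rab4b, Rab5b and Rab11b share part of their sequence with other transcripts, so their levels are uncertain.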
